A study of Mus musculus with 16 samples.

Results

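The cytosolic ribosomal protein genes encode the proteins of the large and small ribosomal subunits. Their messenger RNA was followed here in cultured mouse articular chondrocytes, the cells that make and maintain joint cartilage. Members were chosen by symbol alone: Rpl or Rps followed by a number, optionally one of the letters a, x, l or y and a further digit, or Rplp0, Rplp1, Rplp2 or Rpsa. That rule found 89 of the 55450 genes listed in each table, 83 annotated as protein coding and 6 as processed pseudogenes. Of the 89, 85 passed the filter on low values and were tested, 50 of the large subunit and 35 of the small. Rpl3l, Rpl10l, Rpl32l and Rps12l1 did not pass it. Fau, which encodes a ribosomal protein fused to a ubiquitin-like sequence, Rack1 and Rpl36al lie outside the symbol rule and are described further on.

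Poly(A)-selected, strand-marked RNA sequencing covered 16 libraries of primary chondrocytes, 4 in each of 4 groups. Bleomycin cells received hyaluronidase at 4 U/mL for 4 h, then bleomycin, a DNA-breaking drug, at 50 µg/mL for 24 h, and then fresh medium for 5 days. Doxorubicin cells received doxorubicin, a topoisomerase poison, at 50 nM for 5 days, with the medium renewed every 48 h. IL-1β cells received 1 ng/mL of the inflammatory cytokine interleukin-1 beta for 24 h, and vehicle cells an equal volume of phosphate-buffered saline for 24 h. Cultures were kept at 3% oxygen and, outside the serum-free hyaluronidase step, in medium with 10% serum. The labels do not say when vehicle cells were harvested relative to the 5-day drug cultures, or whether they were given hyaluronidase, so drug and culture time cannot be told apart. They also do not say whether the replicates came from separate cultures or animals, so the p-values measure only the spread between these libraries.

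Each ribosome carries 1 copy of most of these proteins, and the cell makes them in step with ribosomal RNA. Many of their messengers begin with a 5′ terminal oligopyrimidine (TOP) tract, a cytosine followed by a run of pyrimidines, through which the mTORC1 kinase and the RNA-binding protein Larp1 control their translation and stability. When ribosome assembly is disturbed, Rpl5 and Rpl11, held in a particle with 5S ribosomal RNA, bind Mdm2 and let p53 accumulate. Chondrocytes depend on this machinery to secrete collagen and aggrecan.

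The starts of 5 transcripts with a tract are shown as examples, all of members described below. Rps6 and Rps27 have a tract with a C at the annotated start base, and Rpl13a, Rpl22l1 and Rps27l have one a few bases after it. Other members described below, such as Rpl4, Rpl9 and Rps3, had no tract near the annotated start and are not shown. Each line gives 30 bases, 10 before the start and 20 from it on, with the tract in capitals, from RefSeq on GRCm38.p6. The windows are chr4:86857348-86857377 on the minus strand for Rps6, chr3:90213629-90213658 on the minus strand for Rps27, chr7:45128726-45128755 on the minus strand for Rpl13a, chr3:28805498-28805527 on the plus strand for Rpl22l1 and chr9:66946076-66946105 on the plus strand for Rps27l.
Rps6: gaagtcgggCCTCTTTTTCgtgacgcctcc
Rps27: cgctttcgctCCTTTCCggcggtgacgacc
Rpl13a: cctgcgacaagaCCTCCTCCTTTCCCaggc
Rpl22l1: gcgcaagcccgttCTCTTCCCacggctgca
Rps27l: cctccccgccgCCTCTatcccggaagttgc
A tract was defined as C followed by at least 4 pyrimidines (C or T), read on the transcribed strand only. Of the 64 members found in the RefSeq table, 13 (20.3%) had a C at the annotated start base itself followed by at least 4 pyrimidines, against 671 of 27025 genes (2.48%) in the table and 0 of 69 mitochondrial ribosomal protein genes. The 13 include Rpl32l, a processed pseudogene that was not tested. Counting tracts whose C lies within 5 bases of the start on either side, 29 members (45.3%) had one, against 4993 genes (18.5%) and 16 mitochondrial ribosomal protein genes (23.2%). A gene is represented by 1 start in that table, which for some members, Rpl22 among them, lies outside the gene as GENCODE M21 draws it, and a match is a description of the sequence only.

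The tables give FPKM, fragments mapped to a gene scaled by transcript length and by the size of the library, a per-length level that allows genes to be set side by side. Estimated depth was 15.8 to 22.3 M fragments (M, mega) per library. Total FPKM lay between 405159 and 423830 outside the IL-1β group and between 521294 and 559190 within it, where the acute-phase gene Saa3 alone held 11.99 to 14.35% of the total. All 12 chondrocyte markers on a list reached 1 FPKM in each group, with summed levels of 9029 to 12064 FPKM in bleomycin, 8954 to 11888 in doxorubicin, 5418 to 5763 in IL-1β and 12127 to 16143 in vehicle libraries. Of 7 endothelial and 7 erythroid markers, 0 reached 1 FPKM. The 10 macrophage markers summed to 16.6 to 18.0 FPKM with bleomycin, 19.3 to 24.3 with doxorubicin, 29.7 to 35.0 with IL-1β and 8.50 to 10.7 with vehicle. Of these 10, 4 reached 1 FPKM with doxorubicin and 3 in each other group. The 8 adipocyte markers summed to 66.8 to 76.9 FPKM with bleomycin, 143 to 189.8 with doxorubicin, 353 to 392 with IL-1β and 32.3 to 38.2 with vehicle. Most of that sum was Fabp4, at 346.3 to 383.3 FPKM with IL-1β and 27.47 to 34.53 with vehicle. Of the 8, 2 reached 1 FPKM with IL-1β and 2 with vehicle, against 5 with either drug. Adipoq stood at 9.578 to 16.26 FPKM with doxorubicin but at no more than 0.0834 with IL-1β. The 6 synovial fibroblast markers summed to 111 to 146 FPKM with bleomycin, 161 to 217 with doxorubicin, 115 to 140.4 with IL-1β and 49.2 to 76.4 with vehicle, and the 7 osteoblast markers to 22.6 to 31.0 FPKM with bleomycin, 22.4 to 24.7 with doxorubicin, 29.3 to 35.2 with IL-1β and 19.5 to 25.8 with vehicle. Such sums follow the most abundant markers, and single markers could go another way than their list. Comp averaged 1450 FPKM with bleomycin against 934.2 with vehicle, and Ibsp 5.714 with IL-1β against 14.09 with vehicle. The part of these marker changes in the results below was not tested. In such bulk libraries, fewer cells of a type and less RNA per cell cannot be told apart.

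The summed FPKM of the ribosomal protein genes was lower with both DNA-damaging drugs. FPKM is relative to library size, so the amount of these messengers per cell was not measured. The 89 members summed to 47459, 48352, 46510 and 43171 FPKM with bleomycin and to 50033, 44813, 47439 and 48011 FPKM with doxorubicin. They summed to 76932, 75731, 78962 and 69727 FPKM with IL-1β and to 58423, 58884, 63640 and 59030 FPKM with vehicle. Every bleomycin and doxorubicin library lay below every vehicle library, and every IL-1β library lay above them. The means were 46373 ± 2264 FPKM with bleomycin, 47574 ± 2151 with doxorubicin, 75338 ± 3971 with IL-1β and 59995 ± 2444 with vehicle (SD, n = 4 each, as for every value after ± on FPKM here). Against vehicle the differences were -22.7% for bleomycin, -20.7% for doxorubicin and 25.6% for IL-1β. No test was run on the sum, since the members were chosen with results of these data known.

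As a share of total FPKM the drugs gave the same picture and IL-1β did not. The share was 11.4, 11.6, 11.2 and 10.7% with bleomycin, 11.96, 10.97, 11.5 and 11.4% with doxorubicin, 14.3, 14.1, 14.1 and 13.4% with IL-1β and 14.1, 14.2, 15.02 and 14.3% with vehicle. The drug libraries again lay below all the vehicle libraries, while the IL-1β and vehicle shares overlapped, with means of 14.0% ± 0.399 for IL-1β and 14.4% ± 0.421 for vehicle. When Saa3 was left out of the total, a choice made after seeing the data, the IL-1β share was 16.1% ± 0.593 against 14.4% ± 0.421 in vehicle, and all 4 IL-1β libraries lay above all 4 vehicle libraries. The direction for IL-1β thus depended on the denominator: higher in summed FPKM and without Saa3, and 3.03% lower in the plain share.

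**Figure D1:**
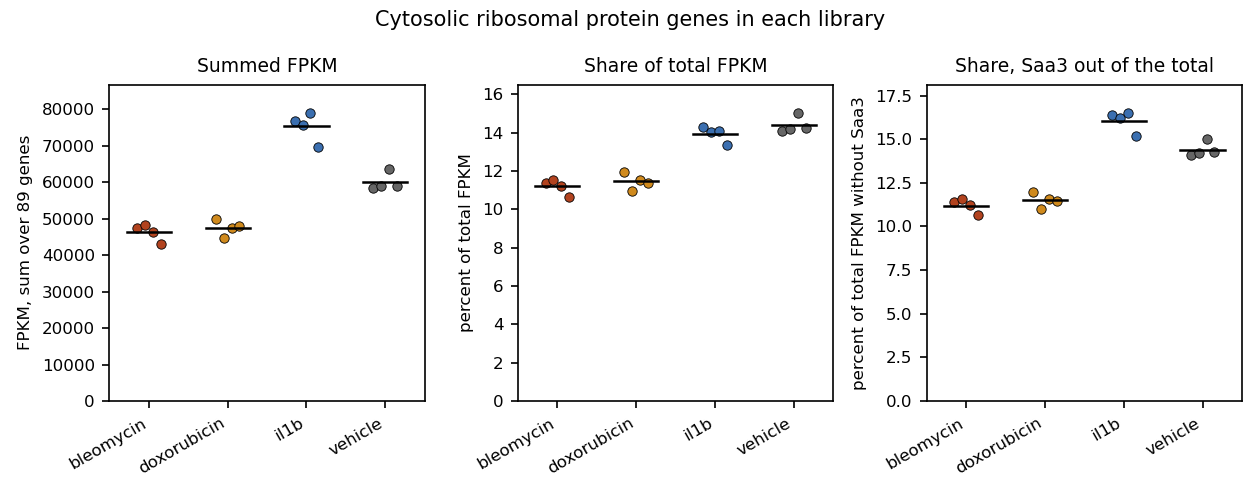
Summed FPKM of the 89 ribosomal protein genes, their percentage of total FPKM, and that percentage without Saa3, for bleomycin, doxorubicin, IL-1β and vehicle libraries; dots are libraries and lines are means of 4. Drug libraries lie below vehicle in every panel, while IL-1β libraries lie above vehicle in the sum (mean 75338 against 59995 FPKM) and without Saa3, but overlap it in the plain share (14.0% against 14.4%).

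The balance of the subunits varied little. Large-subunit members summed to 24790 FPKM with bleomycin, 25479 with doxorubicin, 40557 with IL-1β and 32345 with vehicle, and small-subunit members to 21583 FPKM with bleomycin, 22095 with doxorubicin, 34781 with IL-1β and 27650 with vehicle. The ratio of the sums was 1.15 with either drug, 1.17 with IL-1β and 1.17 with vehicle. The order of members by level was also close to fixed: Spearman's rho between the mean FPKM of any pair of groups over the 85 tested members was 0.970 to 0.992, a description of values that share libraries. Rps14 stood first in mean FPKM over the 16 libraries, followed by Rpl13a, Rplp1, Rps27a, Rps3, Rpl9, Rpl17, Rps7, Rps24 and Rplp0. The median member had 452 FPKM with bleomycin, 467 with doxorubicin, 707 with IL-1β and 592 with vehicle, and 9 members exceeded 1000 FPKM with bleomycin, 12 with doxorubicin, 23 with IL-1β and 16 with vehicle.

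Most of the family was lower with bleomycin. Against vehicle, 66 of the 85 tested members were lower and 0 were higher by limma on log2(FPKM + 1) with Benjamini-Hochberg adjustment over 12976 genes, at an adjusted p under 0.05. Differences given below are on that log2 scale unless said otherwise. Over all tested genes 19% were called lower and 27.9% higher. The median member differed by -0.39 on the log2 scale, against 0.06 for all tested genes, and the members ran from -0.99 to 0.10. In 66 members all bleomycin libraries lay below all vehicle libraries, as in 17.5% of all tested genes, and in 19 the groups overlapped. Calls on 59 of the 66 did not depend on any single library.

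Doxorubicin gave nearly the same counts. Of 85 members, 64 were lower and 1, Rps27l, was higher than vehicle by the same test, where 22.8% of all tested genes were called lower and 25.4% higher. The median was -0.37, against 0.02 for all tested genes. All doxorubicin libraries lay below all vehicle libraries in 61 members, as in 20.5% of all tested genes, and above them in 1 member, as in 23.6% of all tested genes. Large- and small-subunit members were called lower in 40 of 50 and 26 of 35 with bleomycin and in 38 of 50 and 26 of 35 with doxorubicin. Both drugs were set against the same 4 vehicle libraries, so their counts are not independent.

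IL-1β gave counts that turned on the scaling. On the deposited scale 44 members were higher than vehicle and 2, Rpl10 and Rpl4, were lower, where 24.5% of all tested genes were called higher and 18.4% lower. With every library scaled to the same total FPKM, called equal totals here, 11 were higher and 38 lower, where 10% of all tested genes were called higher and 52.4% lower. After quantile normalization, which gives every library the same distribution of values, 13 were higher and 20 lower, where 19.3% of all tested genes were called higher and 24.5% lower. The member median was 0.27 as deposited, -0.10 at equal totals and -0.02 after quantile normalization. Equal totals moved the median of all tested genes by -0.31, to -0.28, so that the member median there lay 0.17 above it. After quantile normalization the median of all tested genes was -0.04, and the member median lay 0.018 above it. Of the 46 members called on the deposited scale, 13 were called in the same direction at equal totals and 15 changed sign, and 15 and 11 did so after quantile normalization. Under median-of-ratios scaling 39 were higher and 3 lower, where 21.8% of all tested genes were called higher and 21.9% lower.

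**Figure D2:**
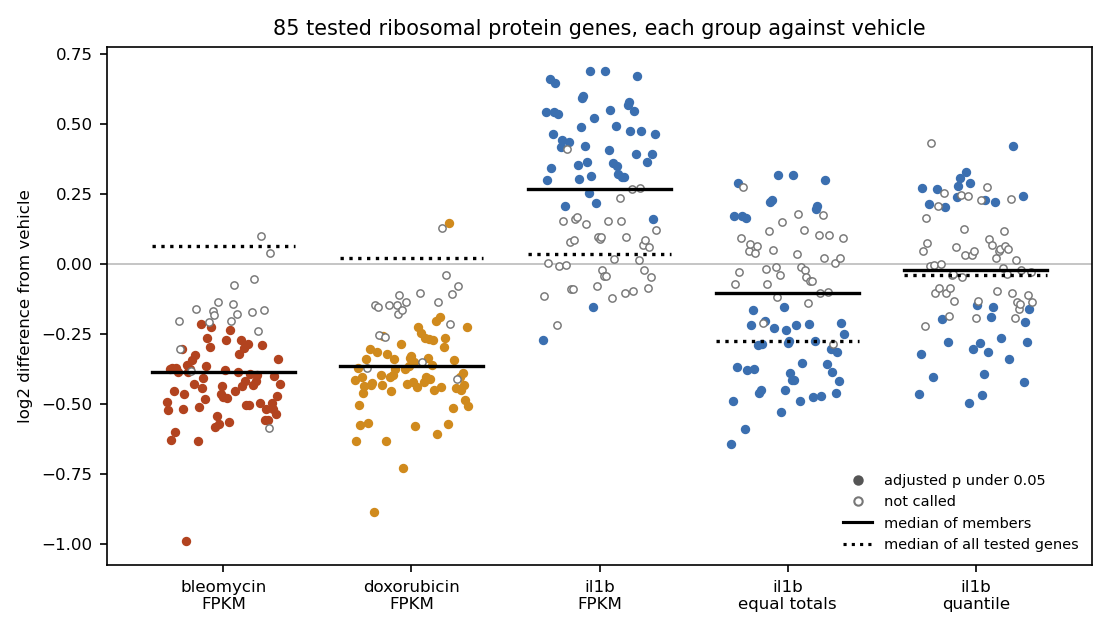
Log2 difference from vehicle of each of the 85 tested members (dots; filled at an adjusted p under 0.05) for bleomycin and doxorubicin as deposited and for IL-1β as deposited, at equal totals and after quantile normalization; the solid line is the member median and the dotted line the median of all tested genes. The drug medians are -0.39 and -0.37, and the IL-1β median is 0.27 as deposited but -0.10 at equal totals and -0.02 after quantile normalization.

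Among large-subunit proteins, Rpl13a and Rpl9 were abundant and moved in opposite directions with the drugs and with IL-1β on the deposited scale. Rpl13a (ENSMUSG00000074129.14, chr7:45125558-45128761) is a large-subunit protein that human monocytes also use outside the ribosome to silence inflammatory messengers. Rpl13a stood at 2062, 2139, 1889 and 1688 FPKM in bleomycin libraries, 2283, 1934, 1987 and 1854 in doxorubicin libraries, 4822, 3998, 3855 and 4173 in IL-1β libraries and 2603, 2640, 2786 and 2597 in vehicle libraries. All libraries of both drugs lay below all vehicle libraries and all IL-1β libraries lay above them, while the libraries of the drugs overlapped each other. The log2 differences were -0.46 with bleomycin (SE 0.09, adjusted p = 0.000434) and -0.40 with doxorubicin (SE 0.09, adjusted p = 0.00108). With IL-1β the difference was 0.66 as deposited (SE 0.09, adjusted p = 1.14e-05), 0.29 at equal totals (adjusted p = 0.00713), and 0.16 after quantile normalization (adjusted p = 0.246). Rpl13a made up 4.19% of the family sum with bleomycin, 5.60% with IL-1β and 4.43% with vehicle.

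Rpl9 stood at 1028, 1065, 932 and 964 FPKM in bleomycin libraries, 1244, 982, 1089 and 1043 in doxorubicin libraries, 2647, 2411, 2315 and 2163 in IL-1β libraries and 1505, 1481, 1423 and 1484 in vehicle libraries. Again both drug groups lay below vehicle and IL-1β above it. Rpl9 differed from vehicle by -0.56 with bleomycin (adjusted p = 1.48e-05) and by -0.44 with doxorubicin (adjusted p = 0.00014). With IL-1β its difference was 0.69 as deposited (SE 0.07, adjusted p = 1.41e-06) and 0.32 at equal totals (adjusted p = 0.00104). Rpl39, a short protein that lines the tunnel through which the new peptide leaves, averaged 1351 ± 199.6 FPKM with IL-1β and 834 ± 86.8 with vehicle, a difference of 0.69 as deposited (SE 0.12, adjusted p = 0.000158) and 0.32 at equal totals (adjusted p = 0.0183). Its drug differences were -0.18 with bleomycin and -0.17 with doxorubicin and did not pass the test.

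Rpl3, Rpl4, Rpl10 and Rpl12 fell with both drugs without a call of higher with IL-1β that held at equal totals. Rpl3, which lies beside the peptidyl transferase centre, fell with both. Rpl3 stood at 184, 179.9, 194 and 186 FPKM in bleomycin libraries, 194, 186, 186 and 178 in doxorubicin libraries, 302, 309, 335 and 281 in IL-1β libraries and 288, 288, 294 and 285 in vehicle libraries. Its log2 difference was -0.63 with bleomycin (SE 0.05, adjusted p = 7.33e-08) and -0.63 with doxorubicin (SE 0.05, adjusted p = 5.13e-08). With IL-1β it was 0.08 as deposited (SE 0.05, adjusted p = 0.207) and -0.29 at equal totals (adjusted p = 5.68e-05), so its sign turned with the scaling.

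Rpl4 is another tunnel protein, and Rpl10 joins the large subunit late in its maturation. On the deposited scale they were the pair called lower in every treated group. At equal totals other members, Rpl3 among them, were called lower in every treated group too. Rpl10 averaged 327 ± 25.9 FPKM with bleomycin, 344 ± 14.3 with doxorubicin, 381 ± 28.9 with IL-1β and 460.1 ± 9.03 with vehicle (SD, n = 4 each). Its difference was -0.49 with bleomycin (adjusted p = 1.04e-05), -0.42 with doxorubicin (adjusted p = 4.62e-05) and -0.27 with IL-1β (adjusted p = 0.00225), the last -0.64 at equal totals. Rpl4 averaged 734 ± 38.6 FPKM with bleomycin, 826 ± 55.6 with doxorubicin, 960.2 ± 28.4 with IL-1β and 1070 ± 10.1 with vehicle (SD, n = 4 each). Its IL-1β difference of -0.16 (adjusted p = 0.0272) was lost without any 1 of IL-1β replicates 1 and 4 or vehicle replicates 1, 3 and 4, with an adjusted p of up to 0.0713, and was -0.53 at equal totals. Rpl12, at the base of the ribosomal stalk, fell by 0.63 with bleomycin (adjusted p = 9.1e-07) and by 0.50 with doxorubicin (adjusted p = 7.27e-06) on the log2 scale. With IL-1β it was 0.30 as deposited (SE 0.06, adjusted p = 0.0012) and -0.07 at equal totals (adjusted p = 0.281).

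Other large-subunit proteins moved less or more unevenly. Rpl13 averaged 464 ± 83.3 FPKM with bleomycin, 401 ± 49.7 with doxorubicin and 605 ± 132 with vehicle. Its bleomycin difference of -0.37 had an adjusted p of 0.0485 and was lost without any 1 of bleomycin replicates 1, 2 and 4 or vehicle replicates 1 and 3 (adjusted p up to 0.167), while doxorubicin gave -0.58 (adjusted p = 0.00411). Rpl23 and Rpl24, the second of which reaches across to the small subunit, were called lower with bleomycin (-0.36 and -0.38) but not with doxorubicin (-0.15 and -0.15). Rpl29 was a low member at 30.2 to 36.7 FPKM in the group means. It passed no test against vehicle on the deposited scale in the fit without a replicate term. Single libraries decided 3 of these: without doxorubicin replicate 4 the doxorubicin differences were -0.22 (adjusted p = 0.0354) for Rpl23 and -0.21 (adjusted p = 0.0103) for Rpl24, and without vehicle replicate 1 that of Rpl29 was -0.33 (adjusted p = 0.0274).

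Rpl5 and Rpl11, the proteins of the 5S particle that bind Mdm2, both fell with the drugs. Rpl5 stood at 220.5, 214, 221 and 229 FPKM in bleomycin libraries, 253, 233, 248 and 245 in doxorubicin libraries, 393, 373, 418 and 353 in IL-1β libraries and 310.5, 320.1, 363 and 327 in vehicle libraries. Rpl11 stood at 469, 446, 455 and 421 FPKM in bleomycin libraries, 487, 399, 424 and 489 in doxorubicin libraries, 881, 879, 873 and 759.8 in IL-1β libraries and 559.5, 592, 611 and 562 in vehicle libraries. In both genes every drug library lay below every vehicle library. Every IL-1β library lay above the vehicle libraries for Rpl11, while for Rpl5 the IL-1β and vehicle libraries overlapped. Rpl5 differed by -0.57 with bleomycin (adjusted p = 1.02e-06) and -0.43 with doxorubicin (adjusted p = 1.68e-05). Rpl11 differed by -0.38 with bleomycin (adjusted p = 0.000409) and -0.37 with doxorubicin (adjusted p = 0.00039). With IL-1β the difference of Rpl5 was 0.22 as deposited (SE 0.06, adjusted p = 0.00675) and -0.15 at equal totals (adjusted p = 0.0169), a change of sign, and that of Rpl11 was 0.54 as deposited (SE 0.07, adjusted p = 1.12e-05) and 0.17 at equal totals (adjusted p = 0.0219).

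The stalk proteins Rplp0, Rplp1 and Rplp2, which recruit elongation factors, differed from vehicle by less than the member median with both drugs. Rplp0 stood at 1132, 1226, 1118 and 1139 FPKM in bleomycin libraries, 1167, 1142, 1182 and 1161 in doxorubicin libraries, 1255, 1313, 1417 and 1292 in IL-1β libraries and 1298, 1295, 1436 and 1414 in vehicle libraries. The drug libraries lay a little below vehicle, and Rplp0 fell by 0.24 with bleomycin (SE 0.05, adjusted p = 0.0017) and by 0.23 with doxorubicin (SE 0.05, adjusted p = 0.00237) on the log2 scale. With IL-1β its difference was -0.04 as deposited (SE 0.05, adjusted p = 0.54) and -0.42 at equal totals (adjusted p = 1.75e-06). Rplp1 differed by -0.20 with bleomycin (adjusted p = 0.0926) and -0.10 with doxorubicin (adjusted p = 0.399). With IL-1β its difference was 0.15 as deposited (SE 0.10, adjusted p = 0.22), -0.22 at equal totals (adjusted p = 0.0278), and -0.39 after quantile normalization (adjusted p = 0.00267). Rplp2 differed by -0.14 with bleomycin (adjusted p = 0.178) and by -0.25 with doxorubicin (adjusted p = 0.023), a call lost without any 1 of doxorubicin replicates 2 and 3 or vehicle replicates 2 and 3 (adjusted p up to 0.0782). With IL-1β it was 0.41 as deposited (SE 0.08, adjusted p = 0.000975) and 0.03 at equal totals (adjusted p = 0.705).

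Among small-subunit proteins, Rps14, whose loss causes the anaemia of the human 5q deletion syndrome, was the most abundant member. Rps14 stood at 2697, 3252, 2294 and 2175 FPKM in bleomycin libraries, 2805, 2507, 2509 and 2379 in doxorubicin libraries, 5329, 4758, 4134 and 3986 in IL-1β libraries and 3469, 3353, 3063 and 2996 in vehicle libraries. Its bleomycin and doxorubicin differences were -0.32 (adjusted p = 0.0327) and -0.34 (adjusted p = 0.0253). The first was lost without any 1 of bleomycin replicates 3 and 4 or vehicle replicates 1 and 2 (adjusted p up to 0.112) and the second without any 1 of doxorubicin replicates 2, 3 and 4 or vehicle replicates 1 and 2 (adjusted p up to 0.0695). With IL-1β the difference was 0.49 as deposited (SE 0.12, adjusted p = 0.00269) and 0.12 at equal totals (adjusted p = 0.366).

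Rps3, which sits where the messenger enters the ribosome, kept its calls with every library left out. Rps3 stood at 1086, 1096, 1086 and 1030 FPKM in bleomycin libraries, 1222, 1087, 1120 and 1015 in doxorubicin libraries, 2403, 2060, 2197 and 2154 in IL-1β libraries and 1594, 1627, 1580 and 1533 in vehicle libraries. The drug and vehicle libraries did not overlap, nor did the IL-1β and vehicle libraries. The differences were -0.56 with bleomycin (SE 0.06, adjusted p = 1.68e-06) and -0.51 with doxorubicin (SE 0.06, adjusted p = 3.26e-06). With IL-1β the difference was 0.47 as deposited (SE 0.06, adjusted p = 8.37e-06), 0.10 at equal totals (adjusted p = 0.145), and -0.14 after quantile normalization (adjusted p = 0.0703).

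Rps6, the substrate of the S6 kinases downstream of mTORC1, fell with both drugs. Rps6 stood at 277, 276, 276 and 224 FPKM in bleomycin libraries, 268, 244, 257 and 287 in doxorubicin libraries, 340.1, 300.5, 384 and 319.5 in IL-1β libraries and 332, 337, 366 and 351 in vehicle libraries. Its differences were -0.40 with bleomycin (adjusted p = 0.000841) and -0.39 with doxorubicin (adjusted p = 0.000928), and with IL-1β -0.05 as deposited (SE 0.08, adjusted p = 0.668) and -0.42 at equal totals (adjusted p = 9.15e-05). Rps27a, made as a fusion with ubiquitin, fell by 0.50 with bleomycin (adjusted p = 0.000138) and by 0.57 with doxorubicin (adjusted p = 3.02e-05). With IL-1β its difference was 0.39 as deposited (SE 0.08, adjusted p = 0.00112), 0.02 at equal totals (adjusted p = 0.831), and -0.10 after quantile normalization (adjusted p = 0.416). Rpsa, known also as the laminin receptor, fell by 0.43 and 0.51 with bleomycin and doxorubicin (adjusted p = 2.84e-05 and 4.1e-06). With IL-1β its difference was 0.12 as deposited (SE 0.06, adjusted p = 0.123) and -0.25 at equal totals (adjusted p = 0.00176).

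Other small-subunit members moved less or more unevenly with the drugs. Rps24 averaged 1099 ± 27.8 FPKM with bleomycin, 1250 ± 87.4 with doxorubicin and 1143 ± 28.1 with vehicle, and neither drug difference (-0.06 and 0.13) passed the test. With IL-1β Rps24 differed by 0.47 as deposited (SE 0.05, adjusted p = 1.83e-06), 0.10 at equal totals (adjusted p = 0.0659), and -0.04 after quantile normalization (adjusted p = 0.587). Rps19, the gene most often mutated in human Diamond-Blackfan anaemia, had differences of -0.28 with bleomycin (adjusted p = 0.00495) and -0.20 with doxorubicin (adjusted p = 0.0323), the second lost without any 1 of doxorubicin replicates 2 and 4 or vehicle replicates 2, 3 and 4 (adjusted p up to 0.106). Its IL-1β difference was 0.31 as deposited (SE 0.07, adjusted p = 0.00284) and -0.06 at equal totals (adjusted p = 0.429). Rps20 was called lower with bleomycin (-0.39, adjusted p = 0.00434) and not with doxorubicin (-0.14, adjusted p = 0.276). Rps10 stood at 498, 509, 878 and 458 FPKM in bleomycin libraries, 1 of them well above the rest, and at 567, 617, 679 and 531 FPKM in vehicle libraries, and its drug differences of -0.08 and -0.35 did not pass the test. Without that library the bleomycin difference was -0.29 (adjusted p = 0.0363), and without doxorubicin replicate 1 the doxorubicin difference was -0.43 (adjusted p = 0.0493). Without doxorubicin replicate 2 the doxorubicin difference of Rps24 was 0.17 (adjusted p = 0.0158).

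**Figure D3:**
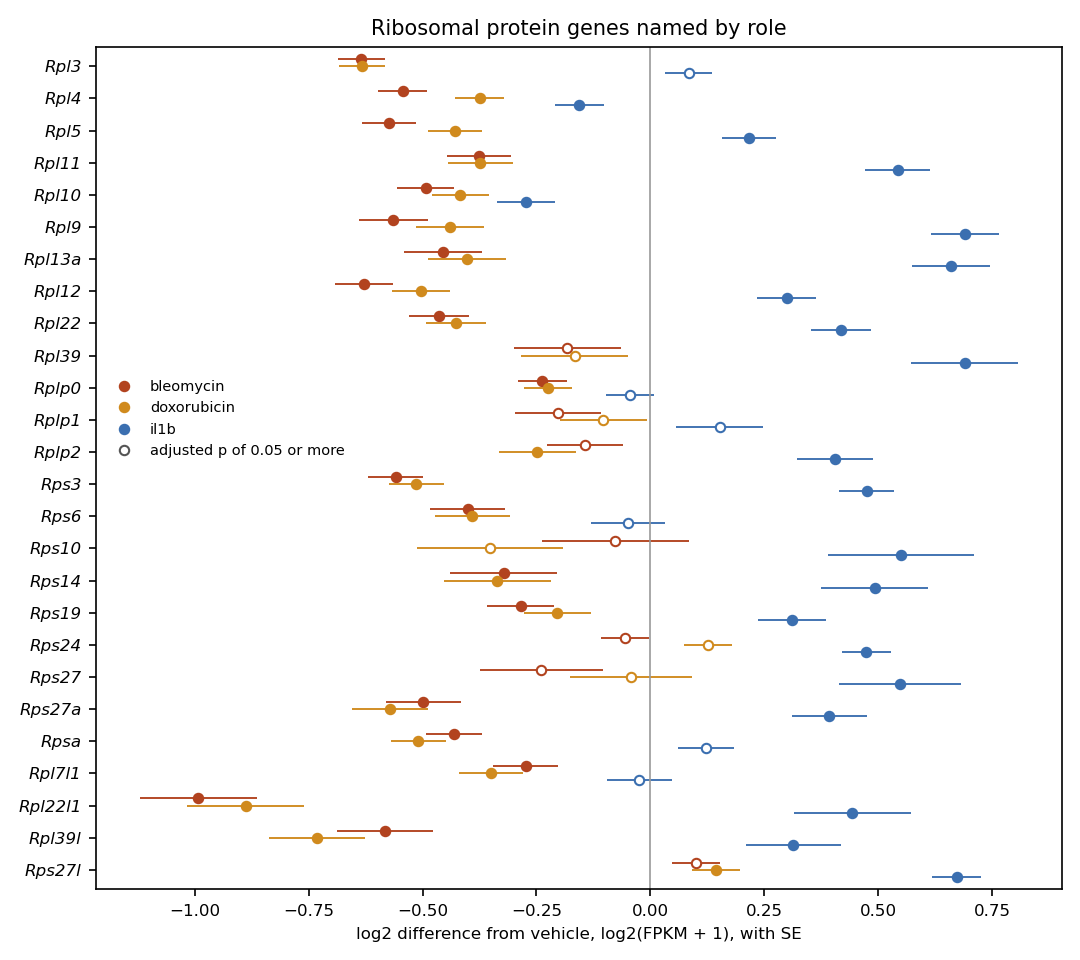
Log2 difference from vehicle ± SE of 26 named members, ordered by role, for bleomycin, doxorubicin and IL-1β on the deposited scale; open symbols did not pass the test. Drug differences of most members lie below 0, with Rpl3 at -0.63 with either drug, while IL-1β differences run from -0.27 (Rpl10) to 0.69 (Rpl9), and several of the IL-1β values, such as Rpl5 and Rpl12, are below 0 at equal totals.

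The paralogues, second copies of a ribosomal protein gene, held both extremes of the drug comparisons. Rpl22l1 (ENSMUSG00000039221.10, chr3:28805436-28807424) encodes an alternative to Rpl22 (ENSMUSG00000028936.15, chr4:152325742-152334071). Rpl22l1 stood at 207, 210.2, 214 and 223 FPKM in bleomycin libraries, 279.6, 193, 273 and 188 in doxorubicin libraries, 646, 539.5, 668 and 479.8 in IL-1β libraries and 399.5, 402, 442 and 459.6 in vehicle libraries. All drug libraries lay below all vehicle libraries. The difference was -0.99 with bleomycin (SE 0.13, adjusted p = 1.09e-05) and -0.89 with doxorubicin (SE 0.13, adjusted p = 2.71e-05), the lowest values of any tested member in these comparisons. Rpl22 itself differed by -0.46 with bleomycin (adjusted p = 3.15e-05) and -0.43 with doxorubicin (adjusted p = 6.05e-05). Rpl22l1 over Rpl22, both per length, was 1.21, 1.28, 1.52 and 1.37 with bleomycin, 1.68, 1.28, 1.601 and 1.12 with doxorubicin, 2.12, 1.72, 2.43 and 1.69 with IL-1β and 1.84, 1.94, 1.88 and 2.08 with vehicle. The drug ratios all lay below the vehicle ratios, and the IL-1β ratios overlapped them. With IL-1β Rpl22l1 differed by 0.44 as deposited (SE 0.13, adjusted p = 0.0101) and 0.07 at equal totals (adjusted p = 0.626).

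Rps27l (ENSMUSG00000036781.13, chr9:66946086-66949516), a paralogue of Rps27 that is reported as a p53 target, did not fall with either drug. Rps27l stood at 401, 383, 365 and 370.3 FPKM in bleomycin libraries, 388, 387, 417 and 375 in doxorubicin libraries, 578, 609, 534 and 540.1 in IL-1β libraries and 354, 367, 339 and 357 in vehicle libraries. Its difference was 0.10 with bleomycin (SE 0.05, adjusted p = 0.137) and 0.14 with doxorubicin (SE 0.05, adjusted p = 0.0346), which made it the only member called higher with a drug on the deposited scale. That call was lost without any 1 of doxorubicin replicates 1, 2 and 3 or vehicle replicates 1, 3 and 4 (adjusted p up to 0.108). With IL-1β the difference was 0.67 as deposited (SE 0.05, adjusted p = 3.61e-08) and 0.30 at equal totals (adjusted p = 0.00029), and all 4 IL-1β libraries lay above all 4 vehicle libraries. Rps27 differed by -0.24 with bleomycin and -0.04 with doxorubicin, neither called, and with IL-1β by 0.55 as deposited (SE 0.13, adjusted p = 0.00349) and 0.17 at equal totals (adjusted p = 0.223). Rps27l over Rps27 averaged 0.554 with bleomycin, 0.5002 with doxorubicin, 0.485 with IL-1β and 0.442 with vehicle. The ratios of every treated group overlapped those of vehicle. They ran from 0.501 to 0.6025 with bleomycin, 0.4542 to 0.5917 with doxorubicin, 0.3481 to 0.5679 with IL-1β and 0.3438 to 0.5247 with vehicle.

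Rpl39l, known from mouse male germ cells, was a low paralogue at 11.3, 14.5, 12.7 and 11.7 FPKM in bleomycin, 11.9, 11.1, 10.9 and 10.8 in doxorubicin, 24.1, 23.9, 30 and 19.6 in IL-1β and 17.5, 19.3, 18.6 and 21.7 in vehicle libraries. It fell by 0.58 with bleomycin (adjusted p = 0.000287) and by 0.73 with doxorubicin (adjusted p = 2.76e-05) on the log2 scale, values that the added 1 FPKM makes a little small. With IL-1β it was 0.31 as deposited (SE 0.10, adjusted p = 0.0243) and -0.04 at equal totals (adjusted p = 0.722), and the first call was lost without any 1 of IL-1β replicate 3 or vehicle replicates 1 and 3. Rpl7l1, a paralogue of Rpl7, fell by 0.27 and 0.35 with bleomycin and doxorubicin (adjusted p = 0.0047 and 0.000659). Rpl3l, known from heart and skeletal muscle, was listed at 0 in all libraries except 1 vehicle library at 0.0305 FPKM, and Rpl10l, known from testis, was listed at 0 in all 16.

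**Figure D4:**
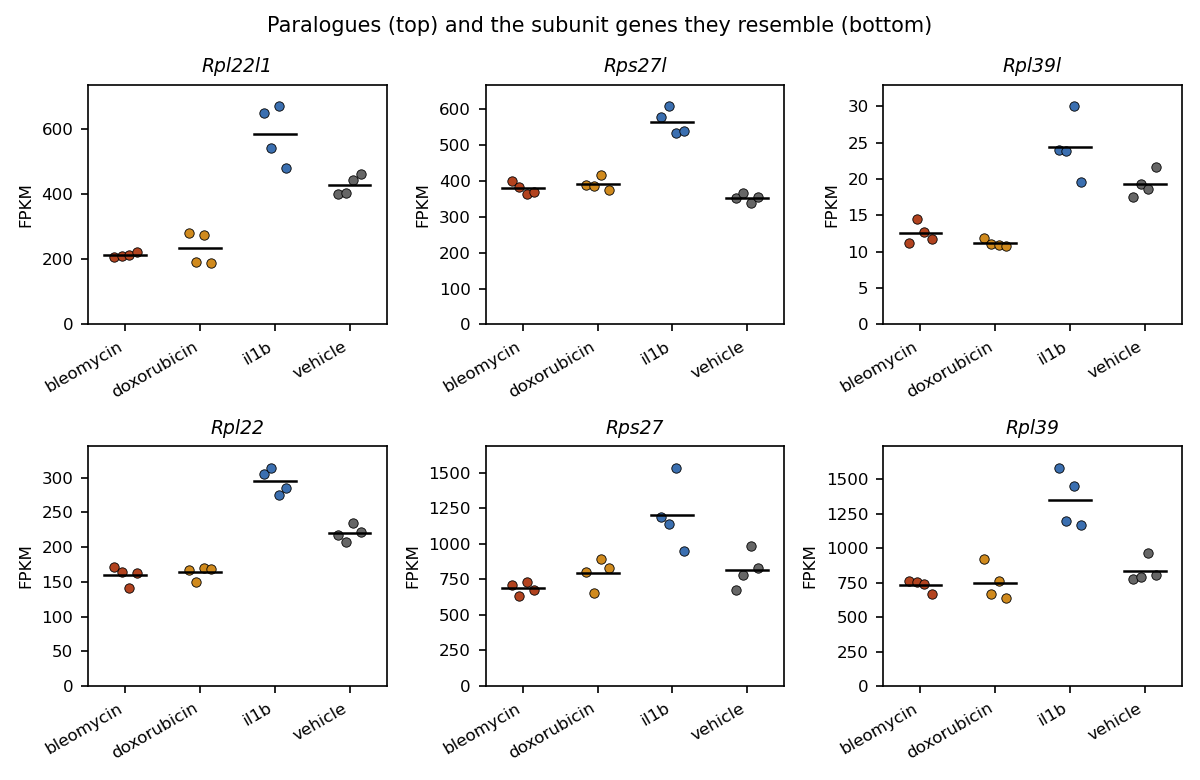
FPKM of Rpl22l1 and Rpl22, Rps27l and Rps27, and Rpl39l and Rpl39 in each bleomycin, doxorubicin, IL-1β and vehicle library (dots). Rpl22l1 averages 213 and 233 FPKM with the drugs against 426 with vehicle, while Rps27l averages 379.9 and 392 against 354.

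The 4 tested members annotated as processed pseudogenes had group means between 6.598 and 108 FPKM, and their reads may be shared with the parent genes, since the counting of reads with several matches is not given in the sources used here. Rps4l averaged 36.5 ± 2.09 FPKM with bleomycin, 33.8 ± 4.01 with doxorubicin and 35.5 ± 1.22 with vehicle, and neither drug difference (0.04 and -0.08) passed the test. Rpl6l averaged 6.598 ± 0.514 FPKM with bleomycin, 7.15 ± 0.752 with doxorubicin and 9.27 ± 0.195 with vehicle, and fell by 0.44 and 0.34 on the log2 scale (adjusted p = 0.00145 and 0.00824). Rps3a2 fell by 0.56 with bleomycin and 0.44 with doxorubicin (adjusted p = 0.00287 and 0.0124), and Rps3a3 differed by -0.58 and -0.41 without passing the test in the fit without a replicate term (adjusted p = 0.0652 and 0.19). Outside the family, 319 rows carry a ribosomal protein symbol that holds -ps, read here as a pseudogene. Pseudogenes under other symbols were not included. The 319 rows summed to 2331 FPKM with bleomycin, 2346 with doxorubicin, 3647 with IL-1β and 3191 with vehicle. Per 100 FPKM of the family these came to 5.02 FPKM with bleomycin, 4.93 with doxorubicin, 4.84 with IL-1β and 5.32 with vehicle.

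Few members differed between the drugs, and the shares called over all tested genes were small too. Bleomycin against doxorubicin gave 0 members higher and 2 lower of 85, Rpl24 (-0.22, adjusted p = 0.0347) and Rps24 (-0.18, adjusted p = 0.0366), where 5.85% of all tested genes were called higher and 4.18% lower. Rpl24 averaged 399.6 ± 22.9 FPKM with bleomycin and 467 ± 39.5 with doxorubicin, and Rps24 1099 ± 27.8 and 1250 ± 87.4 FPKM (SD, n = 4). Neither call held against every library left out: that on Rpl24 was lost without any 1 of bleomycin replicates 2, 3 and 4 or doxorubicin replicates 1, 3 and 4, and that on Rps24 without any 1 of bleomycin replicates 1, 2, 3 and 4 or doxorubicin replicates 1, 3 and 4, with adjusted p up to 0.104 and 0.108. The member median was -0.04, against 0.045 for all tested genes, and in 79 of 85 members the libraries of the drugs overlapped. All bleomycin libraries lay below all doxorubicin libraries in 6 members and above them in 0, where 6.31% of all tested genes lay below and 11.6% above.

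The drugs against IL-1β differed far more widely, at unlike times of 5 days and 24 h. Of 85 members, 0 were higher and 83 lower in the mean of bleomycin and doxorubicin than in IL-1β on the deposited scale, where 28.5% of all tested genes were called higher and 29.5% lower. At equal totals 6 were higher and 49 lower, where 59.2% of all tested genes were called higher and 11.6% lower. After quantile normalization 3 were higher and 67 lower, where 29.9% of all tested genes were called higher and 27.7% lower. The median was -0.58 as deposited, -0.20 at equal totals and -0.30 after quantile normalization. For all tested genes it was -0.003, 0.312 and 0.007. The member median thus lay 0.573 below that of all tested genes as deposited, 0.509 below at equal totals and 0.307 below after quantile normalization. Rpl22l1 gave -1.38 as deposited (adjusted p = 2.31e-08) and -1.0 at equal totals, and Rpl9 -1.19 (adjusted p = 2.03e-10) and -0.81. Rpl10 gave -0.18 (adjusted p = 0.00944) as deposited and 0.20 at equal totals, a change of sign shared by Rplp0 (-0.19 and 0.19).

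Genes that act with the ribosomal proteins were read from 5 lists, beside the shares of all tested genes. Those were 27.9% higher and 19% lower with bleomycin, and 25.4% and 22.8% with doxorubicin. With IL-1β they were 24.5% higher and 18.4% lower as deposited, and 10% and 52.4% at equal totals. Differences between lists were not tested. Of 50 tested ribosome biogenesis and RNA polymerase I genes, 44 were lower and 2 higher with bleomycin, with a median of -0.51, and 42 lower and 1 higher with doxorubicin, with a median of -0.49. With IL-1β 17 were lower and 6 higher as deposited and 45 lower and 0 higher at equal totals. Fbl, the methyltransferase of box C/D particles, averaged 28.8 ± 1.52 FPKM with bleomycin, 25.3 ± 1.28 with doxorubicin and 54.6 ± 2.81 with vehicle, and fell by 0.90 and 1.08 on the log2 scale (adjusted p = 3.86e-09 and 3.19e-10). Nop58, its partner, differed by -1.23 with bleomycin and -1.21 with doxorubicin (adjusted p = 0.000433 and 0.000436), and Tcof1, a factor of ribosomal DNA transcription, by -1.06 with bleomycin and -1.23 with doxorubicin (adjusted p = 9.58e-08 and 1.23e-08). The nucleolar protein Ncl differed by -0.64 with bleomycin and -0.70 with doxorubicin (adjusted p = 2.52e-05 and 7.67e-06). The polymerase I subunit Polr1a passed no test in these comparisons.

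Of 28 translation genes outside the family whose messengers are known or listed as TOP, 18 were lower and 0 higher with bleomycin and 16 lower and 1 higher with doxorubicin, with medians of -0.24 and -0.26. With IL-1β 8 were higher and 12 lower as deposited and 0 higher and 21 lower at equal totals. Eef1a1, the elongation factor that delivers transfer RNA, fell by 0.35 with bleomycin, 0.25 with doxorubicin and 0.23 with IL-1β (adjusted p = 3.94e-05, 0.000681 and 0.0019). Eef2, which moves the ribosome along, fell by 0.24 with bleomycin, 0.22 with doxorubicin and 0.23 with IL-1β (adjusted p = 0.00102, 0.00191 and 0.00165). Npm1, a nucleolar chaperone, fell by 0.88 with bleomycin and 0.72 with doxorubicin (adjusted p = 1.06e-07 and 7.12e-07). Among the ribosomal proteins outside the symbol rule, Rack1 differed by -0.55 with bleomycin and -0.61 with doxorubicin (adjusted p = 0.000294 and 9.51e-05) and Rpl36al by -0.47 with bleomycin and -0.45 with doxorubicin (adjusted p = 8.35e-06 and 1.05e-05). Fau gave -0.14 with bleomycin and -0.18 with doxorubicin, and these did not pass the test.

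Mitochondrial ribosomal proteins, which build a separate ribosome for mitochondrial messengers, had 78 tested genes: 24 were lower and 2 higher with bleomycin and 39 lower and 1 higher with doxorubicin, with medians of -0.11 and -0.23. With IL-1β 35 were higher and 0 lower as deposited and 8 higher and 33 lower at equal totals. Mrpl12 fell by 0.41 with bleomycin and 0.64 with doxorubicin (adjusted p = 4.96e-06 and 3.34e-08). With IL-1β it differed by 0.58 as deposited and 0.21 at equal totals.

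Of 24 mTORC1 components and TOP regulators, 7 were higher and 7 lower with bleomycin and 1 higher and 8 lower with doxorubicin. Over all tested genes 27.9% were called higher and 19% lower with bleomycin, and 25.4% and 22.8% with doxorubicin. With IL-1β 3 were higher and 3 lower as deposited and 1 higher and 17 lower at equal totals. Among those called lower, Larp1 differed by -0.45 with bleomycin, -0.54 with doxorubicin and -0.41 with IL-1β (adjusted p = 1.27e-06, 1.37e-07 and 3.06e-06). Eif4ebp1, a translation repressor held in check by mTORC1 and also called lower, differed by -0.89, -0.88 and -0.39 (adjusted p = 1.71e-06, 1.54e-06 and 0.00341). Myc, which drives ribosomal protein transcription, differed by -0.94 with bleomycin and -0.83 with doxorubicin (adjusted p = 2.55e-06 and 7.34e-06). Of the 10 genes of the p53 and Mdm2 arm, 8 were higher and 2 lower with bleomycin and 7 higher and 1 lower with doxorubicin, with medians of 0.72 and 0.85. Cdkn1a, the cell cycle inhibitor p21, averaged 302 ± 11.2 FPKM with bleomycin, 327 ± 17.9 with doxorubicin and 122 ± 4.55 with vehicle, and rose by 1.30 with bleomycin and 1.42 with doxorubicin on the log2 scale (adjusted p = 2.3e-11 and 9.92e-12). Mdm2 rose by 0.72 with bleomycin and 0.91 with doxorubicin (adjusted p = 3.27e-06 and 1.96e-07), and Trp53 fell by 0.46 with bleomycin and 0.32 with doxorubicin (adjusted p = 9.05e-07 and 2.97e-05). With IL-1β 9 of the 10 were higher and 1 lower as deposited, and 2 higher and 2 lower at equal totals.

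**Figure D5:**
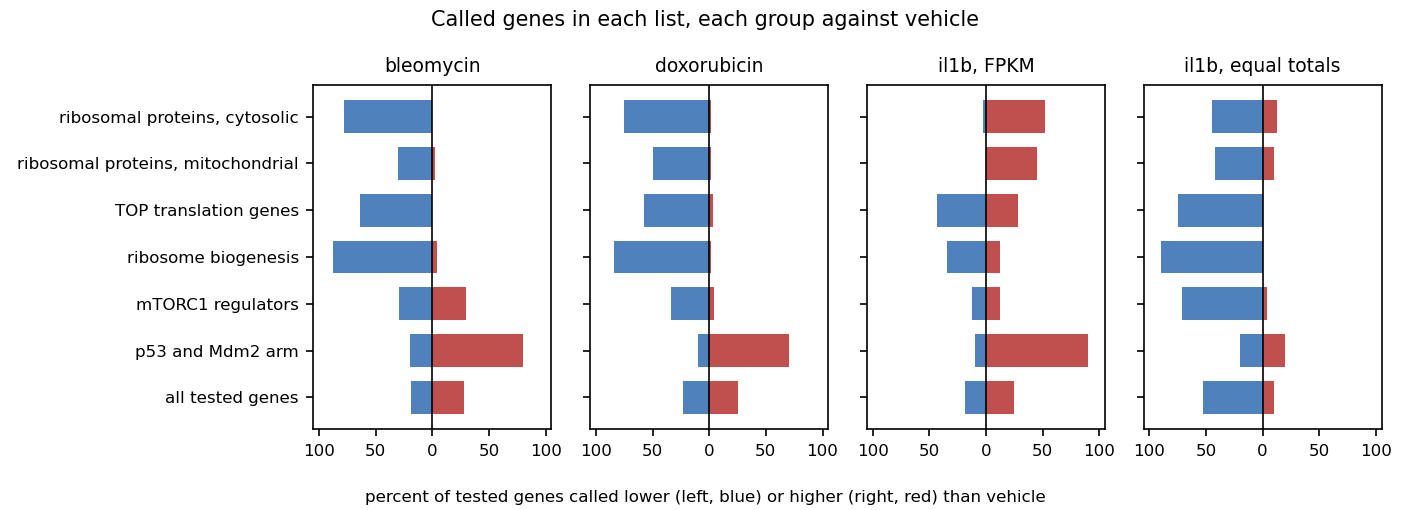
Percentage of the tested genes of each list called higher (right of 0) or lower (left of 0) than vehicle with bleomycin, with doxorubicin and with IL-1β as deposited and at equal totals. Ribosomal protein genes are mostly lower with the drugs (66 and 64 of 85), ribosome biogenesis genes too (44 and 42 of 50). For IL-1β, 44 ribosomal protein genes are higher and 2 lower as deposited, and 11 and 38 at equal totals. For mitochondrial ribosomal protein genes these counts are 35 and 0, then 8 and 33. Of all tested genes, 24.5% are higher and 18.4% lower as deposited, and 10% and 52.4% at equal totals.

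Differences within the family varied with coding length. Length was taken as the longest coding sequence annotated for each gene, which need not be that of the main protein. Over 81 members of 46 to 419 codons, Spearman's rho between length and log2 difference was -0.467 with bleomycin, -0.514 with doxorubicin and -0.42 with IL-1β, a description over genes that share libraries. The 10 members of up to 100 codons had a median difference of -0.20 with bleomycin, the 46 of over 100 and up to 200 codons -0.38 and the 25 over 200 codons -0.47, where other tested genes of those lengths had 0.16, 0.09 and 0.07. With IL-1β the members' medians were 0.34, 0.36 and 0.06 as deposited and -0.03, -0.02 and -0.31 at equal totals, and those of other genes were 0.28, 0.20 and 0.01 as deposited. Whether length has a part in these differences was not tested. Replicates of members were close: the median SD of log2 values was 0.087 with bleomycin, 0.1 with doxorubicin, 0.116 with IL-1β and 0.098 with vehicle, against 0.085 with bleomycin, 0.103 with doxorubicin, 0.101 with IL-1β and 0.093 with vehicle for other genes of at least 100 FPKM.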

How the data were processed

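Messenger RNA of 16 libraries of mouse articular chondrocytes, 4 groups of 4, was analysed from 1 deposited table per library. The deposited values are FPKM computed by the authors. Trimmomatic was used for trimming and STAR for alignment, with GRCm38 as genome build, per the submitters' processing notes. The FPKM program, the annotation it used and its treatment of reads with several matches are not given in the sources used here, and reads shared with processed pseudogenes or paralogues make such members uncertain. Identifiers were matched to GENCODE M21 (55104 of 55450), the source of the gene coordinates on GRCm38, and transcript starts came from the RefSeq table on GRCm38.p6.

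Values were analysed as log2(FPKM + 1), which understates the change of low genes. The 12976 genes that reached 1 FPKM in 4 or more of the 16 libraries were tested with limma 3.58.1 (R 4.3.3; empirical Bayes with trend, group as the only term, all libraries in 1 fit) and Benjamini-Hochberg adjustment within each of 5 comparisons. The method was tested on simulated data. Groups came from the sample labels, which give no batch or date. Depth was estimated from the steps between low values at 15.8 to 22.3 M fragments per library (M, mega). At these depths 64.9 to 68.3% of low values were within 0.1 of a whole fragment, so counts were not recovered and no count test was run. At most 0.00853% of values were equal between a pair of replicates.

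Members named were a fixed set of stalk proteins, paralogues and proteins with known further roles, the 3 highest and 3 lowest differences in each comparison, the 3 highest and 3 lowest mean levels, and up to 5 called members per comparison that went against most of the others. The genes outside the family were a fixed set with, from each list, up to 2 called genes of largest difference per comparison, of which some are described; a few named genes are not reported here. The members, gene lists and rule were chosen with earlier results of these data known. Alternatives were equal totals (TPM computed from the deposited FPKM), median-of-ratios and quantile scaling, a pseudocount of 0.1, no filter or 5 FPKM, a fit of the compared groups only, a replicate block, each library left out, and other denominators for the share. Python 3.11.15, numpy 2.4.6, pandas 2.3.3, scipy 1.17.1 and matplotlib 3.10.9 were used.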

Additional observations from a re-analysis of the deposited data

Results flagged for a closer look

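In 12 of 144 groups of 4 libraries checked, the highest or lowest library lay far from the other 3 by Dixon's criterion, which chance meets in about 1 in 20 groups. The summed FPKM of the family was 63640 in vehicle replicate 3, against 58423 to 59030 in the other vehicle libraries, and Rpl39 was 962.8 FPKM there, against 778.5 to 804.4. In the bleomycin group, Rps10 was 877.8 FPKM in replicate 3, against 458.3 to 508.8 in the others, and replicate 4 was low for Rps3 at 1030 FPKM, against 1086 to 1096, and for Rps6 at 223.8 FPKM, against 275.5 to 276.7. In the doxorubicin group, Rpl4 was 909.1 FPKM in replicate 4, against 794.1 to 800.4, and Rplp1 was 2053 FPKM in replicate 2, against 2193 to 2213. In the IL-1β group, replicate 3 was high for Rplp1 at 3148 FPKM, against 2358 to 2487, and for Rps19 at 884.9 FPKM, against 741.7 to 758.8. Replicate 4 of that group was low for Rpl11 at 759.8 FPKM, against 873.2 to 880.8, and for Rps10 at 756.8 FPKM, against 903.6 to 930.6. Rpl7l1 was 51.73 FPKM in IL-1β replicate 1, against 58.26 to 59.32 in the other IL-1β libraries.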

How the results depend on the processing

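The counts of members lower with bleomycin and doxorubicin kept their side and stayed within 1.5 times under the alternatives tried. Members higher with doxorubicin were 2 at equal totals and with the 5 FPKM filter, and 0 with median-of-ratios scaling and with no filter. With IL-1β the higher members were 11 at equal totals and 13 after quantile normalization, and the lower ones 38 and 20, and 1 with no filter; the median was -0.10 and -0.02. Bleomycin against doxorubicin gave 4 lower members with median-of-ratios scaling and with the replicate block, and 0 with no filter and with only the compared groups in the fit. The drugs against IL-1β gave 6 higher and 49 lower members at equal totals (median -0.20) and 3 higher after quantile normalization (median -0.30). Against vehicle, IL-1β differences of named members changed sign at equal totals for Rpl12 (-0.07), Rpl13 (-0.37), Rpl23 (-0.22), Rpl3 (-0.29), Rpl39l (-0.04), Rpl5 (-0.15), Rpl6l (-0.24), Rplp1 (-0.22), Rps19 (-0.06), Rps20 (-0.28) and Rpsa (-0.25), and after quantile normalization for Rplp1 (-0.39), Rps24 (-0.04), Rps27a (-0.10) and Rps3 (-0.14). The drugs against IL-1β changed sign at equal totals for Rpl10 (0.20), Rpl24 (0.12), Rpl29 (0.25), Rpl4 (0.08), Rpl7l1 (0.09), Rplp0 (0.19), Rplp1 (0.07), Rps20 (0.02) and Rps6 (0.03), and after quantile normalization for Rpl10 (0.02), Rpl4 (0.01), Rplp0 (0.29), Rplp1 (0.29) and Rps24 (0.14). The cause was not tested. Without the 20 highest other genes the share was 12.51% with bleomycin, 12.9% with doxorubicin, 17.79% with IL-1β and 16.07% with vehicle. With pseudogene rows added it was 11.76% with bleomycin, 12.03% with doxorubicin, 14.63% with IL-1β and 15.16% with vehicle. Without Saa3 it was 16.07% with IL-1β. Leaving out 1 library at a time gave 60 to 65 lower members with bleomycin (median -0.42 to -0.35), 58 to 64 with doxorubicin (0 to 1 higher, median -0.40 to -0.34), 40 to 47 higher and 1 to 4 lower with IL-1β (median 0.18 to 0.31), 0 to 3 lower for bleomycin against doxorubicin (median -0.07 to -0.01) and 79 to 83 lower for the drugs against IL-1β (median -0.61 to -0.54). The shares then ran from 11.08 to 11.38% with bleomycin, 11.3 to 11.63% with doxorubicin, 13.85 to 14.15% with IL-1β and 14.19 to 14.5% with vehicle. Libraries with the same replicate number had deviations correlated at -0.02 to 0.21, and 14 of 24 correlated best with their own number. The 24 values reuse the same libraries, and no chance level was computed for them. The numbers may mark something shared, which was not tested and which the labels do not say. Not every pair exceeded 0.1, and the fit without the block was kept. Rpl26 and Rps3a3 were highest in replicate 1 and lowest in replicate 4 of every group. The fit without the block leaves any such pairing out, and the calls given above come from it. The replicate block gave 68 lower members with bleomycin, 68 lower and 1 higher with doxorubicin, and 48 higher and 2 lower with IL-1β. Under it Rps3a3 passed the test with bleomycin (-0.59, adjusted p = 3.38e-06) and doxorubicin (-0.41, adjusted p = 5.91e-05), as did Rpl26 with bleomycin (-0.38, adjusted p = 0.00107), doxorubicin (-0.26, adjusted p = 0.013) and IL-1β (0.41, adjusted p = 0.000678), named here after their values were seen. With the block Rplp1 also passed with bleomycin (adjusted p = 0.0334), and Rpl29 and Rps10 with doxorubicin (adjusted p = 0.0178 and 0.042). Rpl31 no longer passed with bleomycin (adjusted p = 0.0619). Depth is known only as an estimate, so no counting interval is given.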
